A study of Eutrema salsugineum with 41 samples.

Results

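Runs of chromatin with little H3K9me2 were examined in Eutrema salsugineum, a salt-tolerant relative of Arabidopsis thaliana that has no CMT3 gene of its own. The members were chosen by a rule on wild-type reads. A 1 kb window entered when it held 20 or more input reads and its wild-type H3K9me2 reads, per library reads, were below 0.5 of the input level, and it was kept when 10 or more such windows touched each other. This gave 36059 windows in 2419 runs, out of 236189 windows on the 24 scaffolds whose last read ended at 1 Mb or beyond. The runs are thus low in wild-type H3K9me2 by construction, and that low level is a description and not a result.

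The H3K9me2 libraries came from leaves of 1 wild-type plant and 4 transgenic plants, with 1 library per plant, and the input came from wild type. The transgenic plants carried the A. thaliana CMT3 gene (AtCMT3) under its own promoter, introduced by floral dip and selected with BASTA. They belonged to 2 lineages, L1 and L2, and to generations T3 and T5 of single seed descent, giving AtCMT3-L1T3 and AtCMT3-L1T5 in the first lineage, AtCMT3-L2T3 and AtCMT3-L2T5 in the second. All plants, wild type included, lacked a CMT3 gene native to the species. No group had a replicate, so no test was made, all intervals are 95% intervals that cover counting error only, and a difference between 2 libraries is a difference between 2 plants and 2 immunoprecipitations.

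H3K9me2 is a histone mark of silent chromatin in plants, found mainly over transposons and repeats. CMT3 is a DNA methyltransferase that binds H3K9me2 and methylates cytosines in the CHG context, and H3K9 methyltransferases bind methylated DNA in turn, so that both marks reinforce each other. Active, gene-rich chromatin (euchromatin) normally carries little of the mark. Reads recovered from such chromatin in a ChIP experiment include fragments that precipitate without the mark, and the 2 sources cannot be separated in these libraries. Whether the runs are gene-rich was not analysed here, because no gene positions on these scaffolds were used, and the name euchromatic therefore rests on low H3K9me2 alone.

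The libraries held between 4494275 reads (wild type) and 18722786 reads (AtCMT3-L2T5), and the input held 10880290. Read names showed that the input and both T5 libraries came from 1 sequencing run and wild type from another. AtCMT3-L1T3 was spread over 2 sequencing runs, of which the first was shared with wild type, and AtCMT3-L2T3 had a sequencing run to itself. Generation and sequencing run therefore cannot be told apart in any comparison of T3 with T5 plants. Comparisons of AtCMT3-L2T3 and of both T5 plants with wild type also cross sequencing runs.

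The runs covered 36.059 Mb of 236.178 Mb. They took 17.8% of the 202767 windows with enough input and 35.3% of the 102155 windows below the limit, so most depleted windows lay in shorter stretches. The median run was 13 kb long (quartiles 11 and 17 kb), 423 runs had the minimum length of 10 kb, 67 reached 30 kb and the longest measured 58 kb. A window inside the runs held a median of 53 input reads, against 45 over all windows with enough input. At the edge of the rule, member windows with wild type at 0.45 to 0.5 of input numbered 1923 and windows at 0.5 to 0.55, which by the rule lie outside runs, numbered 5955. AtCMT3-L1T3 stood at 0.295 of input over the former and 0.507 over the latter, and AtCMT3-L2T3 at 0.203 and 0.393. Windows at 0.45 to 0.5 that lay outside runs (5466) stood at 0.483 and 0.375 in these plants, near the latter. Member windows with 20 to 22 input reads numbered 70 and were higher, at 0.413 in AtCMT3-L1T3, 0.267 in AtCMT3-L2T3, 0.67 in AtCMT3-L1T5 and 0.538 in AtCMT3-L2T5. The 423 runs of 10 windows and the 621 stretches of 9 windows differed little, with AtCMT3-L1T3 at 0.186 and 0.185 and AtCMT3-L2T5 at 0.283 and 0.281.

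Runs were spread unevenly over the scaffolds, and the scaffolds fell apart into 2 sets with none in between. On 11 scaffolds 23.2% or more of the windows with enough input lay in runs, while on the other 13 the share was at most 8.93%. The first set held 30249 member windows and the second 5810. Scaffold 19 had the highest share, 42.5%, and scaffold 24 had no run at all among 1327 windows with enough input. By length, scaffold 2 led with 4.952 Mb in 308 runs, followed by scaffold 5 with 4.836 Mb in 309 runs and scaffold 1 with 4.567 Mb in 309 runs. These 3 scaffolds carried 39.8% of the member windows and 26% of all windows with enough input.

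Scaffolds rich in runs were poor in enriched windows, defined here as windows with 10 or more wild-type reads and at least 4 times the input level. Enriched windows made up 0.534% to 8.46% of the 11 run-rich scaffolds and 10.2% to 17.5% of the other 13. Over the 24 scaffolds the share in runs and the share enriched ran in opposite directions (Spearman's rho = -0.90, Pearson's r = -0.94, a description with no test, since the same wild-type and input reads entered both). Along the scaffolds, read from the start of their numbering, 25.5% of the windows in the first 10% of length were in runs, 20.2% at 40 to 50% and 12% in the last 10%. Enriched windows made up 7.33% of the first and 11.6% of the last such segment. These shares are pooled, and single scaffolds differed in layout. The 1 Mb richest in runs lay from 822001 to 1822000 on scaffold 1, but from 10896001 to 11896000 on scaffold 10. Scaffold 10 had no run in its first 1.557 Mb. The pooled decline is thus not a trait of each scaffold.

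**Figure D1:**
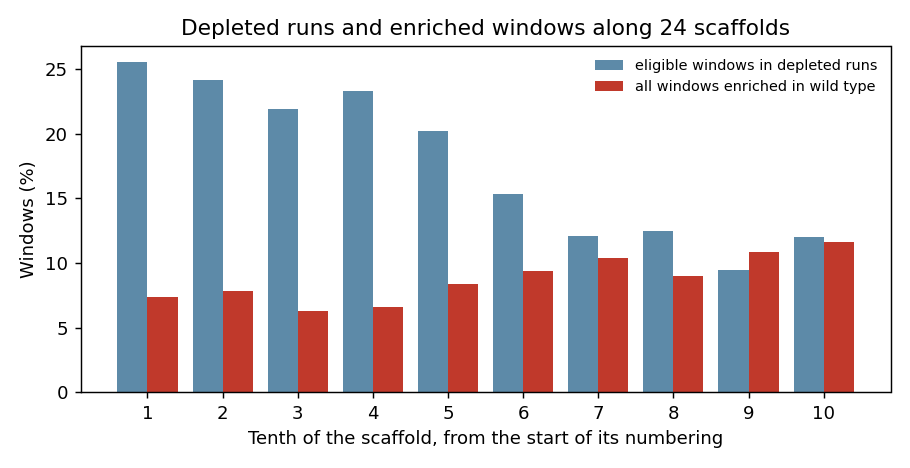
Share of windows with enough input that lay in depleted runs (blue) and share of all windows enriched for wild-type H3K9me2 (red), in 10 segments of equal relative length over 24 scaffolds. The share in runs is 25.5% in the first segment and 12% in the last, and the enriched share is 7.33% and 11.6%. Shares are pooled over scaffolds, and single scaffolds differed in layout.

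Runs often followed each other closely, and few touched an enriched window, both being set by the same wild-type reads. The gap between neighbouring runs had a median of 23 kb (quartiles 8 and 54 kb), and 279 of 2396 gaps were a single window. The widest gap on any scaffold measured 4233 kb. An enriched window was touched by 101 runs (4.18%), against 19.8% of 13906 blocks of 10 touching windows with enough input and none enriched. The nearest enriched window lay a median of 26 kb from a run and 14 kb from such a block. The blocks were laid from the first window of each unenriched stretch, which can lie beside an enriched window. That layout favours blocks that touch one, so the contrast with the runs is set in part by it. Of the 4838 run edges, 77.3% were set by a window at 0.5 to 1 of input, 14.7% by one at 1 to 4 times input, 1.22% by one at 4 times input or more and 6.78% by one with too few input reads.

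The question put to the AtCMT3 plants was whether chromatin low in H3K9me2 in wild type stayed low once the enzyme was present. Over all runs the 4 plants remained well under input, and AtCMT3-L1T5 stood above and both T3 plants below wild type. Wild type itself had 1.18 reads per kb per 1000000 library reads (RPKM), or 0.225 of input (0.224 to 0.226). AtCMT3-L2T3 was lowest at 0.586 RPKM and 0.112 of input (0.111 to 0.112). AtCMT3-L1T3 followed at 0.9 and 0.171 (0.171 to 0.172). Both T5 plants were higher, AtCMT3-L2T5 at 1.43 and 0.271 (0.271 to 0.272) and AtCMT3-L1T5 at 1.73 and 0.33 (0.329 to 0.331). The input level over the same windows was 5.25. None of the intervals overlapped, and the order was both T3 plants, wild type, both T5 plants.

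Because wild-type reads chose the runs, selection pulls their level down, and plants were also compared with wild type in reads that had not chosen the runs. The wild-type and input reads were split at random into 2 parts. Runs chosen in one part (1918 runs, 26277 windows) were measured in the other, where wild type stood at 0.244 of input against 0.206 in the part that chose them. In these held-out reads AtCMT3-L1T3 had 0.709 of the wild-type level (0.703 to 0.714) and AtCMT3-L2T3 had 0.464 (0.46 to 0.468). AtCMT3-L1T5 had 1.36 times (1.35 to 1.37) and AtCMT3-L2T5 1.12 times (1.11 to 1.13) the wild-type level. The plants thus stood on the same sides of wild type in reads that had not chosen the runs, with both T5 plants closer to it. The place of AtCMT3-L2T5 above wild type rested on the scale, because when each library was also taken relative to its own level over the remaining windows, neither in runs nor enriched, the held-out value was 0.995 (0.988 to 1). The other plants kept their sides on that scale, at 1.24 in AtCMT3-L1T5, 0.637 in AtCMT3-L1T3 and 0.452 in AtCMT3-L2T3. Wild-type reads took part in choosing the remaining windows, so that scale is not free of the selection either. In all reads the 4 plants stood at 1.04 to 1.13 times wild type over those windows, which lowers each ratio on that scale. With the runs chosen and measured in all reads, the values per library reads were 0.761 in AtCMT3-L1T3 and 0.495 in AtCMT3-L2T3. They were 1.47 in AtCMT3-L1T5 and 1.2 in AtCMT3-L2T5.

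Run by run the held-out reads gave the same picture. AtCMT3-L1T5 was above wild type in 1837 of 1918 runs (95.8%, against 75.6% of all blocks of 10 touching windows with enough input) and AtCMT3-L2T5 in 1402 (73.1%, against 68.8%). The share in AtCMT3-L2T5 was thus near that of all blocks, and that in AtCMT3-L1T5 was above it. AtCMT3-L1T3 was above wild type in 195 runs (10.2%, against 42.2% of blocks) and AtCMT3-L2T3 in 22 (1.15%, against 28.8%). The counting interval lay wholly above wild type in 815 runs of AtCMT3-L1T5 (42.5%, against 23.2% of blocks) and wholly below in 0 (against 5.7%). In AtCMT3-L2T5 it lay above in 212 (11.1%, against 18.9%) and below in 13 (0.678%, against 5.91%), so that neither share exceeded that of all blocks. In AtCMT3-L1T3 it lay below in 940 (49%, against 24.1%) and above in 15 (0.782%, against 19.2%). In AtCMT3-L2T3 it lay below in 1678 (87.5%, against 46.2%) and above in 1 (0.0521%, against 12.4%). These interval shares also depend on counts, which were lower in the runs. Before the split, member windows held 5.32 wild-type reads each on average, against 18.2 over all windows with enough input.

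The T3 and T5 plants of a lineage can be set against each other without wild type, whose reads made the rule. AtCMT3-L1T5 had 1.93 times the level of AtCMT3-L1T3 over the runs (1.92 to 1.93), and AtCMT3-L2T5 had 2.43 times that of AtCMT3-L2T3 (2.42 to 2.45). In lineage 1 the T5 plant was higher in 2406 of 2419 runs (99.5%, against 66.2% of blocks). In lineage 2 it was higher in 2419 of 2419 (100%, against 79% of blocks). Both T5 plants exceeded both T3 plants in 2398 runs (99.1%, against 59% of blocks). Over enriched windows the ratio went the other way, 0.947 in lineage 1 and 0.737 in lineage 2. Over all windows with enough input that were neither in runs nor enriched it was 0.972 and 1.08. Within these, the 66096 windows below the limit that lay in shorter stretches gave 1.44 (1.44 to 1.45) in lineage 1 and 1.82 (1.82 to 1.83) in lineage 2. The T5 plants were thus higher over depleted windows outside the runs as well, by a smaller factor than in them. Each ratio compares a single plant with a single plant from different sequencing runs.

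The contrast between enriched windows and runs also differed among the plants. Enriched windows stood at 61.2 times the level of the runs in AtCMT3-L2T3 and 31.3 times in AtCMT3-L1T3, but at 18.5 times in AtCMT3-L2T5 and 15.4 times in AtCMT3-L1T5. In wild type, whose reads chose both sets, the factor was 30.7. Relative to input, the enriched windows themselves were at 5.03 in AtCMT3-L2T5, 5.08 in AtCMT3-L1T5, 5.36 in AtCMT3-L1T3, 6.83 in AtCMT3-L2T3 and 6.93 in wild type. Among the AtCMT3 plants, the T5 plants thus had the lower levels over enriched windows and the higher levels over the runs. The part of immunoprecipitation efficiency in these values was not tested.

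The reads of AtCMT3-L1T3 came from 2 sequencing runs and were also measured in each. Over the member windows it stood at 0.171 of input in the sequencing run shared with wild type and at 0.172 in the other, a ratio of 0.991 (0.985 to 0.996). Relative to wild type in the held-out reads these were 0.706 (0.7 to 0.712) and 0.712 (0.706 to 0.718). This compares 1 plant with 1 plant, covers 2 sequencing runs of 1 library, and says nothing of the sequencing run of the T5 plants.

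Nearly all member windows also lay below 0.5 of input in the T3 plants, and fewer did in the T5 plants. The share was 99.1% in AtCMT3-L2T3 (99 to 99.2%), against 57.2% of all windows with enough input. It was 97.4% in AtCMT3-L1T3 (97.2 to 97.6%), against 52.5%. In AtCMT3-L2T5 it was 91.4% (91.1 to 91.7%), against 46.6%, and in AtCMT3-L1T5 82.9% (82.5 to 83.3%), against 42.3%. In 28721 member windows (79.7%, against 38.2% of all windows with enough input) all 4 plants were below this limit. Single windows are coarse, since 3 reads in 1 window already make 0.387 RPKM in AtCMT3-L2T3 and 0.668 in wild type, and AtCMT3-L2T3 had no read in 1626 member windows (4.51%).

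Summed over whole runs the plants were below 0.5 of input almost throughout. The number of runs below the limit was 2418 in AtCMT3-L2T3 (against 57.4% of blocks), 2414 in AtCMT3-L1T3 (against 53.5%), 2411 in AtCMT3-L2T5 (against 50.5%) and 2407 in AtCMT3-L1T5 (against 47.4%). Runs at or above the limit were thus few in every plant.

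**Figure D2:**
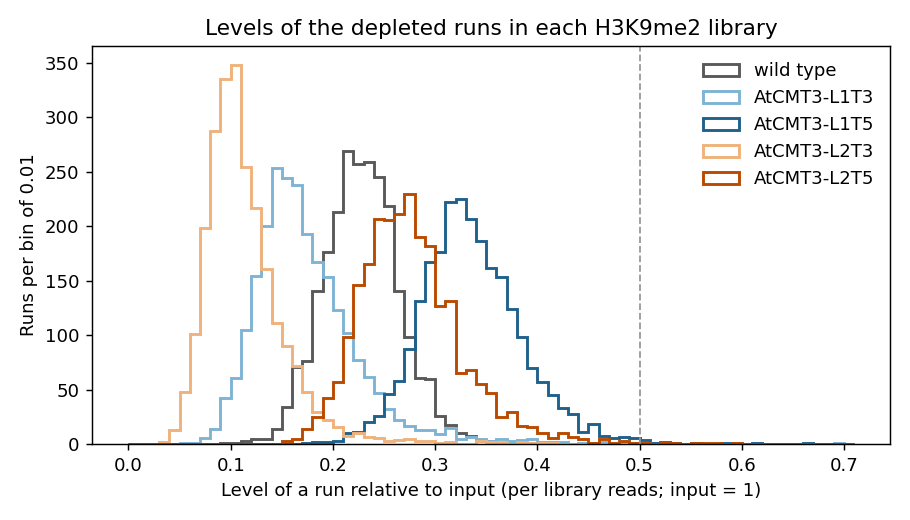
Number of runs by level relative to input (per library reads, bins of 0.01), for wild type and the 4 AtCMT3 plants over 2419 runs. The dashed line marks 0.5 of input. The medians are 0.106 in AtCMT3-L2T3, 0.166 in AtCMT3-L1T3, 0.227 in wild type, 0.271 in AtCMT3-L2T5 and 0.331 in AtCMT3-L1T5.

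Member windows that reached the input level in a transgenic plant were rare. There were 10 in AtCMT3-L2T3 (0.0277%, against 33.7% of all windows with enough input), 21 in AtCMT3-L1T3 (0.0582%, against 36%), 33 in AtCMT3-L2T5 (0.0915%, against 36.1%) and 111 in AtCMT3-L1T5 (0.308%, against 35.1%). In all, 136 member windows reached it in at least 1 plant (39.2% of all windows with enough input did), and 107 of these did so in 1 plant only. They had a median of 30.5 input reads and lay at the first or last position of their run in 27.2% of cases, a position that 13.4% of all member windows hold.

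Both windows that reached input in all 4 plants are named here after their values were seen. The window from 11458001 to 11459000 of scaffold 1 had 64 input reads and 13 wild-type reads, or 0.492 of input. AtCMT3-L1T3 had 149 reads there, 1.65 of input (1.22 to 2.25), and AtCMT3-L2T3 had 67, 1.47 of input (1.03 to 2.1). AtCMT3-L1T5 had 72 reads (1.14, 0.802 to 1.62) and AtCMT3-L2T5 had 130 (1.18, 0.869 to 1.62). Only the intervals of both T3 plants lay above input there. The window from 8303001 to 8304000 of scaffold 12 held 21 input reads and 4 wild-type reads, and all 4 intervals, 0.929 to 2.79 in AtCMT3-L1T3 and 0.982 to 3.36 in AtCMT3-L2T3 among them, reached below input.

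Runs differed among themselves by more than counting error in each plant. In AtCMT3-L1T3 the middle 90% of runs lay between 0.109 and 0.271 of input and in AtCMT3-L2T3 between 0.0665 and 0.184. In AtCMT3-L2T5 they lay between 0.207 and 0.369 and in AtCMT3-L1T5 between 0.26 and 0.423. The relative spread was wider in the T3 plants, with coefficients of variation over runs of 37.1% (AtCMT3-L2T3) and 31.8% (AtCMT3-L1T3), than in the T5 plants, with 18.7% (AtCMT3-L2T5) and 15% (AtCMT3-L1T5). The counting interval of a run left out the pooled level of its library in 1305 of 2419 runs in AtCMT3-L1T3 (53.9%) and 1086 in AtCMT3-L2T5 (44.9%). It did so in 917 in AtCMT3-L2T3 (37.9%) and 740 in AtCMT3-L1T5 (30.6%), counts that also depend on depth. Between the 2 sequencing runs of AtCMT3-L1T3 the interval of the ratio left out 1 in 124 runs (5.13%). No like share over all blocks is given here, so these counts do not set the runs against the rest of the genome.

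The plants ranked the runs in part alike. Over the 2419 runs, Spearman's rho of reads per kb was 0.80 between both T3 plants, 0.77 between AtCMT3-L1T3 and AtCMT3-L2T5, and 0.75 between AtCMT3-L2T3 and AtCMT3-L2T5. It was lower for every pair with AtCMT3-L1T5, at 0.54 with either T3 plant and 0.59 with AtCMT3-L2T5. The reads of AtCMT3-L1T3 from its 2 sequencing runs gave 0.82. These correlations are across regions of the same genome, which share mappability and base composition, and are given as a description.

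In the 5 longest runs both T3 plants lay below their pooled levels over all runs. The longest, from 2316001 to 2374000 of scaffold 13, held 3061 input and 264 wild-type reads over 58 windows (0.209 of input). AtCMT3-L1T3 had 689 reads there (0.159), AtCMT3-L2T3 235 (0.108), AtCMT3-L2T5 1582 (0.3) and AtCMT3-L1T5 1003 (0.332). Wild-type reads chose this run, so no side of wild type is drawn from it for the plants. All 58 windows of AtCMT3-L2T3, 57 of AtCMT3-L1T3, 55 of AtCMT3-L2T5 and 48 of AtCMT3-L1T5 were below 0.5 of input. The nearest enriched window was 72 kb away.

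The other 4 of the longest runs showed the same order of plants. They ran from 4979001 to 5035000 of scaffold 2, from 1690001 to 1745000 of scaffold 6, from 3860001 to 3908000 of scaffold 1 and from 7353001 to 7401000 of scaffold 2. Across these 4, wild type lay between 0.205 and 0.225 of input and AtCMT3-L2T3 between 0.0912 and 0.111. AtCMT3-L1T3 lay between 0.133 and 0.161, AtCMT3-L2T5 between 0.24 and 0.274 and AtCMT3-L1T5 between 0.315 and 0.341. In point values the 4 plants did not overlap over these 4 runs. The place of wild type among them was fixed in part by the rule. In the last of these runs its interval (0.197 to 0.255) overlapped that of AtCMT3-L2T5 (0.223 to 0.257).

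A single run of 10 windows, from 3009001 to 3019000 of scaffold 15, had the highest level in 3 of the 4 plants and in wild type. It held 487 input and 79 wild-type reads (0.393 of input, 0.306 to 0.499). AtCMT3-L1T3 had 478 reads (0.695, 0.611 to 0.79), AtCMT3-L2T3 had 174 (0.501, 0.419 to 0.597) and AtCMT3-L2T5 had 495 (0.591, 0.52 to 0.671). AtCMT3-L1T5 stood at 0.613 with 295 reads, below its own maximum. The run was named for this maximum, and its wild-type reads took part in choosing it, so no ratio to wild type is drawn from it. In AtCMT3-L1T3 the 10 windows ranged from 0.418 to 1.2 of input, so that the high level was not due to 1 window.

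The highest run of AtCMT3-L1T5 lay from 18656001 to 18668000 of scaffold 1. It held 519 input reads and 343 reads of AtCMT3-L1T5 (0.669, 0.582 to 0.768). AtCMT3-L2T3 had 170 reads there (0.46, 0.384 to 0.547), AtCMT3-L2T5 had 433 (0.485, 0.426 to 0.552) and AtCMT3-L1T3 had 273 (0.372, 0.32 to 0.432), and wild type had 62. All 4 plants were thus above their pooled level there.

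The lowest runs lay elsewhere in each plant. AtCMT3-L1T3 was lowest from 628001 to 638000 of scaffold 1, with 44 reads against 622 in the input (0.0501, 0.036 to 0.068), while AtCMT3-L1T5 had 167 reads there (0.272). AtCMT3-L2T3 was lowest from 331001 to 341000 of scaffold 3, with 14 reads against 596 (0.033, 0.0179 to 0.0557). AtCMT3-L1T5 was lowest from 13248001 to 13258000 of scaffold 1, with 167 reads against 940 (0.18, 0.152 to 0.212). AtCMT3-L2T5 was lowest from 5642001 to 5656000 of scaffold 4, with 443 reads against 1686 (0.153, 0.137 to 0.17). The input was unusually deep in the last pair of these, at 8.64 and 11.1 RPKM against 5.25 over all runs. AtCMT3-L1T5 had 1.55 RPKM in its lowest run, against 1.73 over all runs. AtCMT3-L2T5 had 1.69 RPKM in its lowest run, against 1.43 over all runs. The part of input depth in these low levels was not tested.

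Across the edges of the runs, which wild-type reads had placed, the level in the plants changed within 1 window. The first window outside an edge stood at 0.59 of input in AtCMT3-L1T3, 0.487 in AtCMT3-L2T3, 0.795 in AtCMT3-L1T5 and 0.716 in AtCMT3-L2T5. The first window inside stood at 0.209, 0.142, 0.362 and 0.308. From the second window inward the level hardly moved, from 0.172 to 0.165 in AtCMT3-L1T3 and from 0.325 to 0.324 in AtCMT3-L1T5 between the second and the fifth window. At 10 kb outside, the plants stood at 0.49, 0.432, 0.602 and 0.553 in the same order, and wild type at 0.574. Both T3 plants and AtCMT3-L2T5 were below wild type there. Windows outside an edge that lay in a neighbouring run were kept in these values. Over all windows with enough input that were neither in runs nor enriched, all 4 plants were above wild type. Their levels there were 1.13 times wild type in AtCMT3-L1T3, 1.04 in AtCMT3-L2T3, 1.1 in AtCMT3-L1T5 and 1.13 in AtCMT3-L2T5. Wild-type reads took part in setting that choice of windows too. The wild-type level of 0.875 in the first window outside and 0.248 in the first inside was fixed in part by the rule.

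**Figure D3:**
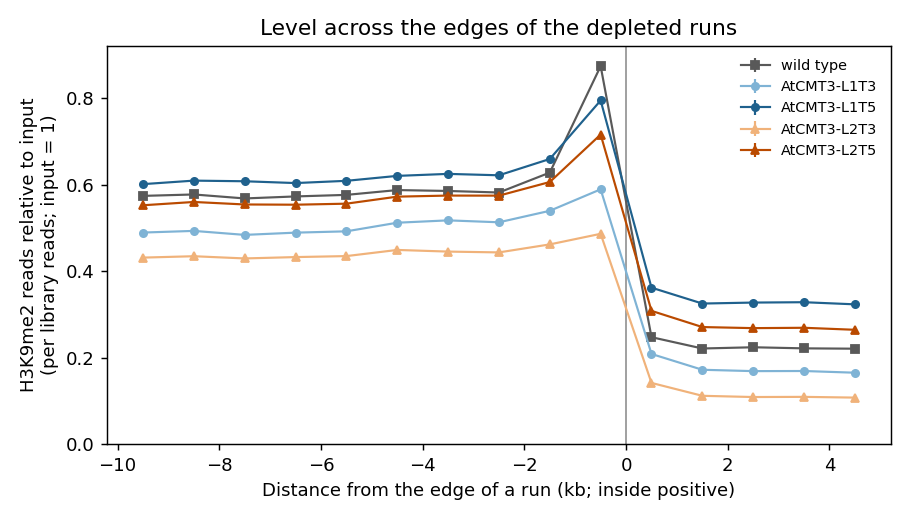
Level relative to input (per library reads) in 1 kb windows by distance from the edge of a run, pooled over 4838 edges, for wild type and the 4 AtCMT3 plants. Bars, mostly smaller than the points, are 95% counting intervals. Windows outside an edge include windows of neighbouring runs. In the plants the level falls between the first window outside and the first inside, for example from 0.59 to 0.209 in AtCMT3-L1T3.

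The level was lower over longer depleted stretches, by a larger factor in the T3 plants than in the T5 plants. In the held-out reads, isolated windows below the limit stood at 0.507 of input in AtCMT3-L1T3, 0.41 in AtCMT3-L2T3 and 0.423 in wild type. Stretches of 10 to 14 windows stood at 0.18, 0.119 and 0.246, and runs of 20 to 29 windows at 0.16, 0.103 and 0.238. Relative to wild type, AtCMT3-L1T3 thus went from 1.2 in isolated windows to 0.732 and 0.671, and AtCMT3-L2T3 from 0.969 to 0.482 and 0.432. In input units AtCMT3-L1T5 went from 0.536 to 0.334 and 0.325, and AtCMT3-L2T5 from 0.54 to 0.278 and 0.263. Relative to wild type AtCMT3-L1T5 went from 1.27 to 1.36 and 1.36, and AtCMT3-L2T5 from 1.28 to 1.13 and 1.1.

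**Figure D4:**
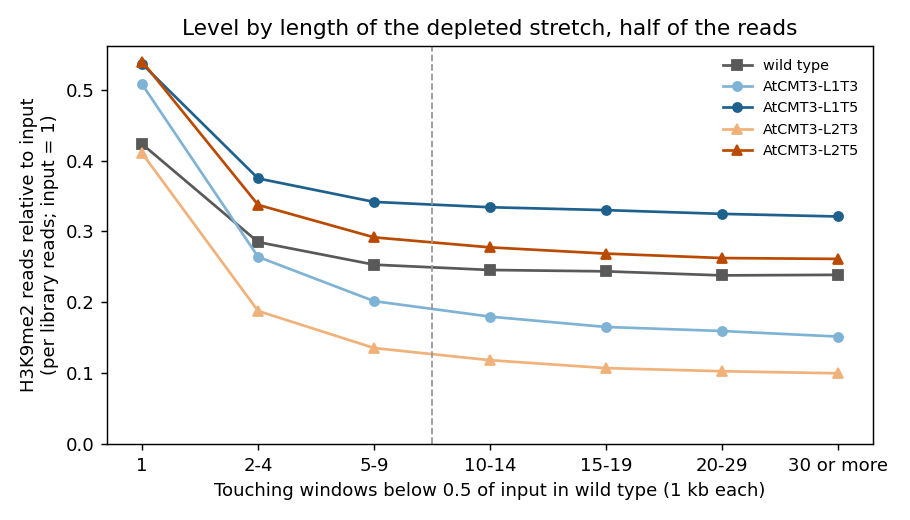
Level relative to input (per library reads) by the number of touching windows below 0.5 of input in wild type, chosen in one part of the wild-type and input reads and measured in the other. Stretches right of the dashed line count as runs. In AtCMT3-L1T3 the level is 0.507 for isolated windows and 0.18 for stretches of 10 to 14 windows, and in AtCMT3-L1T5 it is 0.536 and 0.334.

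Scaffold by scaffold, the order of the plants was nearly constant. In the held-out reads AtCMT3-L1T5 and AtCMT3-L2T5 were above wild type on each of the 22 scaffolds that had a run there, and AtCMT3-L2T3 was below on each of them. The interval lay above wild type on 21 scaffolds in AtCMT3-L1T5 and on 20 in AtCMT3-L2T5, and below it on 21 in AtCMT3-L2T3. These levels are per library reads. Relative to the remaining windows, a scale set in part by wild-type reads, the pooled AtCMT3-L2T5 value was 0.995. AtCMT3-L1T3 was below on 20, and its interval lay below wild type on 18 and above it on 0. With all reads, AtCMT3-L1T3 ranged from 0.701 to 0.998 of wild type over the 20 scaffolds with 250 or more member windows, AtCMT3-L2T3 from 0.438 to 0.667, AtCMT3-L2T5 from 1.17 to 1.37 and AtCMT3-L1T5 from 1.43 to 1.54. AtCMT3-L1T5 therefore varied least and AtCMT3-L2T3 most, in proportion. Within each lineage the T5 plant was above the T3 plant on all 23 scaffolds with a run, by 1.3 to 2.08 times in lineage 1 and 1.58 to 2.7 times in lineage 2.

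The 3 scaffolds with the most run length were alike. On scaffold 2, wild type stood at 0.228 of input, AtCMT3-L1T3 at 0.162, AtCMT3-L2T3 at 0.104, AtCMT3-L2T5 at 0.267 and AtCMT3-L1T5 at 0.331. On scaffold 5 the values were 0.226, 0.165, 0.106, 0.27 and 0.335 in the same order, and on scaffold 1 they were 0.226, 0.17, 0.111, 0.271 and 0.33. Each library varied little between these scaffolds. On scaffold 19, which had the highest share in runs, the values were 0.222, 0.156, 0.102, 0.259 and 0.325.

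Scaffolds poor in runs had a higher level over the runs that they did have, in both T3 plants and in AtCMT3-L2T5. Over the 450 runs of the 13 scaffolds under 10%, AtCMT3-L1T3 stood at 0.204 of input (0.203 to 0.206), against 0.165 (0.164 to 0.165) over the 1969 runs of the 11 run-rich scaffolds. AtCMT3-L2T3 stood at 0.137 against 0.107 and AtCMT3-L2T5 at 0.289 against 0.268. AtCMT3-L1T5 hardly differed, at 0.333 against 0.329, and wild type stood at 0.227 against 0.225 with the rule acting on it. In the held-out reads, where wild type was at 0.254 and 0.242, AtCMT3-L1T3 was 0.842 of wild type on the run-poor and 0.68 on the run-rich scaffolds, and AtCMT3-L2T3 was 0.571 and 0.441. Over the 20 scaffolds with 250 or more member windows, Spearman's rho between the share in runs and the level was -0.92 in both T3 plants, -0.88 in AtCMT3-L2T5 and -0.20 in AtCMT3-L1T5 (Pearson's r = -0.93 in AtCMT3-L1T3, -0.92 in AtCMT3-L2T3, -0.86 in AtCMT3-L2T5 and -0.34 in AtCMT3-L1T5), given as a description. The 2 scaffolds on which AtCMT3-L1T3 was above wild type in the held-out reads were scaffold 18 (1.14, 0.95 to 1.38) and scaffold 12 (1.03, 0.918 to 1.17), with 33 and 111 member windows there, and both intervals held 1.

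**Figure D5:**
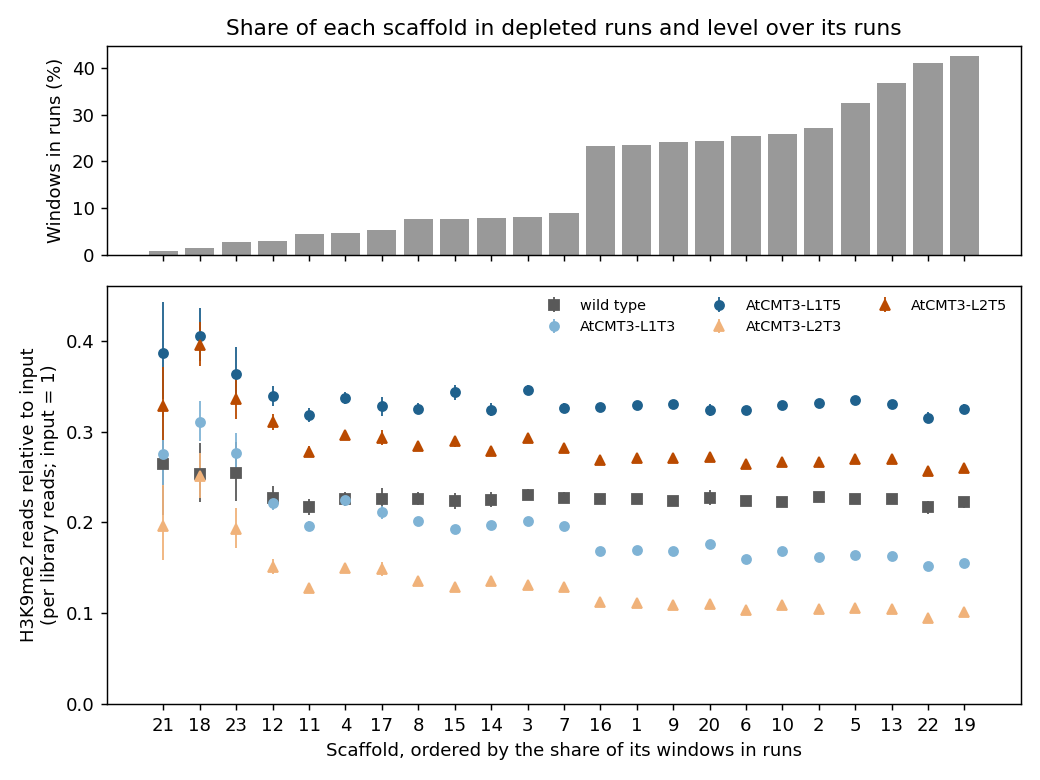
Top, share of windows with enough input that lay in runs on each of 23 scaffolds (%). Bottom, level over the runs of each scaffold relative to input (per library reads) in wild type and the 4 AtCMT3 plants, with 95% counting intervals. In point values the 4 AtCMT3 plants keep their order on each of the 23 scaffolds, and AtCMT3-L1T3 stands at 0.204 of input on the run-poor and 0.165 on the run-rich scaffolds.

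The distance of a run from enriched chromatin made a smaller difference. Runs more than 50 kb from an enriched window (837 runs) stood at 0.158 of input in AtCMT3-L1T3 and 0.102 in AtCMT3-L2T3, and runs 2 to 5 kb away (384 runs) at 0.182 and 0.119. Runs that touched an enriched window (101 runs) stood at 0.175 and 0.116. AtCMT3-L1T5 stayed at 0.331, 0.33 and 0.325 in these 3 sets. In none of these 3 plants was the level highest in the runs that touched an enriched window.

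The order of the plants over the runs was not that of the transgene's RNA. In RNA-seq libraries of the same lineages and generations, scaled here to TPM (transcripts per 1000000), AtCMT3 had 159 TPM in AtCMT3-L2T3, 97.8 in AtCMT3-L1T5, 77.2 in AtCMT3-L1T3, 62.7 in AtCMT3-L2T5 and 0.225 in wild type. Each value is from 1 library, and the labels do not say whether RNA and chromatin came from the same plants. The plant with the most transgene RNA had the lowest level over the runs, and the plant with the second most had the highest.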

How the data were processed

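The deposited read positions were those the authors kept after trimming with Trimmomatic, alignment of unique matches with Bowtie to the E. salsugineum genome (version 1.0) and removal of duplicates with SAMtools. The labels' processing notes name HISAT2 2.1.0 and StringTie 1.3.3b. The deposited score column of each read was constant and was not used. All columns of the expression table were deposited under the name FPKM. Of the deposited columns, 5 summed to 1000000, as TPM do, and were treated as TPM, which is read from the values and not stated by the authors. Each column was scaled to a sum of 1000000, with no column left without a sample.

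Reads were counted by midpoint in windows of 1000 bp with Python 3.11.15 (numpy 2.4.6, scipy 1.17.1) and divided by the reads of the whole library. Ratios of 2 counts carry conditional binomial intervals and shares carry exact Clopper-Pearson intervals at 95%. PCR reads are not independent molecules, so intervals cover counting error only. The steps were tested on simulated data. No model was fitted and no p-value computed. Members, lists and alternatives were chosen with earlier results of these data known. The text names the 5 longest runs, the highest and lowest run of each plant, the 3 scaffolds with the most run length and those with the highest and lowest share in runs. No input of the AtCMT3 plants was used, so all levels rest on the wild-type input. Gene positions and base composition were not analysed here, since no genome sequence was used.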

Additional observations from a re-analysis of the deposited data

Results flagged for a closer look

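The level over the runs lay below wild type in both T3 plants and above it in AtCMT3-L1T5. In held-out reads it was 0.709 of wild type in AtCMT3-L1T3, 0.464 in AtCMT3-L2T3, 1.36 in AtCMT3-L1T5 and 1.12 in AtCMT3-L2T5. In the reads that also chose the runs it was 0.761 of wild type in AtCMT3-L1T3 and 0.495 in AtCMT3-L2T3, and 1.47 times wild type in AtCMT3-L1T5 and 1.2 times in AtCMT3-L2T5. AtCMT3-L2T5 was no longer above wild type in held-out reads when levels were taken relative to the remaining windows (0.995). Wild-type reads took part in choosing those windows. With 1 library per plant the difference between generations was not tested, and it cannot be told apart from the sequencing run.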

How the results depend on the processing

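In 42 of 42 alternatives that gave all 4 plants, leaving out each scaffold among them, AtCMT3-L2T3 was lowest, followed by AtCMT3-L1T3, AtCMT3-L2T5 and AtCMT3-L1T5. The ratio of T5 to T3 over the runs lay between 1.8 and 2.1 in lineage 1 and between 2.19 and 2.66 in lineage 2. The number of members depended strongly on the rule. It was 10606 windows in 843 runs with a minimum of 40 input reads, 14404 windows in 1126 runs with wild type below 0.4 of input and 57253 windows below 0.6. Runs of 5 or more windows gave 68767 windows in 7428 runs and runs of 20 or more gave 9502 in 375. Windows of 500 bp gave 9963 windows in 407 runs, and scaling to reads outside enriched windows gave 10365 in 832.

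The levels relative to wild type moved by more than their counting interval in many alternatives, and the 1 change of side was in AtCMT3-L2T5. In the order T3 and T5 of lineage 1, then T3 and T5 of lineage 2, a minimum of 40 input reads gave 0.739, 1.43, 0.475 and 1.17. A limit of 0.6 gave 0.765, 1.41, 0.504 and 1.18, and a limit of 0.4 gave 1.56 and 1.26 in both T5 plants. Windows of 500 bp gave 0.77, 1.62, 0.485 and 1.29 and windows of 2000 bp gave 0.766, 1.38, 0.511 and 1.16. The held-out reads gave 0.709, 1.36, 0.464 and 1.12. Scaling to the reads on the scaffolds used gave 0.753, 1.46, 0.491 and 1.19 with the runs kept. Scaling to the remaining windows, chosen after seeing the data, gave 0.675, 1.34, 0.475 and 1.07, and with held-out reads, also chosen after seeing the data, 0.637, 1.24, 0.452 and 0.995. Scaling to reads outside enriched windows with held-out reads, chosen likewise, gave 0.66, 1.24, 0.468 and 1.02.

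For AtCMT3-L1T3, AtCMT3-L2T3 and AtCMT3-L2T5, runs of 5 or more windows gave 0.816, 0.54 and 1.23, runs of 20 or more gave 0.719, 0.462 and 1.19, and the median over runs was 0.733, 0.472 and 1.2. Choosing the runs again on reads of the scaffolds used gave 0.752, 0.489 and 1.19. For AtCMT3-L1T3, AtCMT3-L1T5 and AtCMT3-L2T5, scaling to reads outside enriched windows gave 0.712, 1.45 and 1.16 with runs chosen again and 0.699, 1.33 and 1.09 with runs kept. Leaving out each scaffold in turn gave, for AtCMT3-L2T3, 0.492 to 0.501, for AtCMT3-L1T3 0.756 to 0.769, for AtCMT3-L2T5 1.2 to 1.21 and for AtCMT3-L1T5 1.46 to 1.47. Levels relative to input ranged from 0.189 to 0.3 in wild type, 0.0916 to 0.148 in AtCMT3-L2T3, 0.145 to 0.21 in AtCMT3-L1T3, 0.244 to 0.327 in AtCMT3-L2T5 and 0.305 to 0.399 in AtCMT3-L1T5. The share of member windows below 0.5 of input was least stable in AtCMT3-L1T5 (68.6% to 90%). Apart from fewer windows passing a stricter rule and selection on wild-type reads, the cause of these shifts was not tested. Alternatives on gene density, expression and base composition were not run. T3 and T5 plants were set side by side within 2 lineages with no paired test, since 2 pairs cannot give a two-sided exact sign-flip p below 0.5. The wild-type library, with 4494275 reads, entered the counting error of every level relative to wild type. Over the runs AtCMT3-L2T3 had fewer reads (163875) than wild type (191693).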
